A study of Mus musculus with 2 samples.

Results

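The genes described here are 10 components of the circadian clock, taken by symbol from the count tables: the activators Arntl and Clock, the repressors Per1, Per2, Per3, Cry1 and Cry2, and Dbp, Tef and Bhlhe40, which the clock drives. They are 10 of the 23282 rows in each table, and they were set down as a check on culture timing. The cells were 3T3-L1, an established mouse preadipocyte line of fibroblast type, which the labels call murine adipocytes. The 2 cultures differed in the siRNA they were given, a control siRNA or one that targets Pink1, a mitochondrial kinase, and a single library of 3′ end tags was made from each. The days of differentiation, the time after transfection and the clock time of harvest are not given in the labels.

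The mammalian clock is a feedback loop of transcription. The proteins of Arntl (also called Bmal1) and Clock pair up, bind E-box sequences and switch on the Per and Cry genes, whose proteins then block that pair. A second loop runs through Nr1d1 and Nr1d2, which repress Arntl, and the ROR receptors, which activate it, both through the ROR response element. Dbp and Tef are output factors that bind D-boxes. In tissues with a running clock, Arntl peaks at the opposite time of day from Dbp and the Per genes, and adipose tissue and cultured fibroblasts both hold such clocks.

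Promoter sequences of 4 members are shown because they carry the 3 elements of these loops beside the genes with the lowest ratio (Arntl), the highest ratio (Cry1) and a pair of Per genes. They are RefSeq windows on GRCm38.p6, from 250 bases before a start site to 50 after it, written 5′ to 3′ on the gene's strand, with motif matches in capitals. The Arntl window lies at chr7:113207261-113207560 on the plus strand, Cry1 at chr10:85185005-85185304 on the minus strand, Per1 at chr11:69098699-69098998 on the plus strand and Per3 at chr4:151044616-151044915 on the minus strand.
Arntl: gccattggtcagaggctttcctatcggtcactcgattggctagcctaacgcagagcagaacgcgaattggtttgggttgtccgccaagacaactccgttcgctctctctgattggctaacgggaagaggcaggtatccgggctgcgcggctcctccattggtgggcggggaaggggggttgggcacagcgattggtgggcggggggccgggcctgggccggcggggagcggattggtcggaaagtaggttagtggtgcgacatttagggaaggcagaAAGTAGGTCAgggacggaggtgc
Cry1: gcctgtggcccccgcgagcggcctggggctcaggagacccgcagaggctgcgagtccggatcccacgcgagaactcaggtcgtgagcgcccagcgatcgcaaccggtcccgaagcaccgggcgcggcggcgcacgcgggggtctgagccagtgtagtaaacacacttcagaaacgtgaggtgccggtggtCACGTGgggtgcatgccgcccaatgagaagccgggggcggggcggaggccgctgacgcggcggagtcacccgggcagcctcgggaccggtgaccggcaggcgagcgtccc
Per1: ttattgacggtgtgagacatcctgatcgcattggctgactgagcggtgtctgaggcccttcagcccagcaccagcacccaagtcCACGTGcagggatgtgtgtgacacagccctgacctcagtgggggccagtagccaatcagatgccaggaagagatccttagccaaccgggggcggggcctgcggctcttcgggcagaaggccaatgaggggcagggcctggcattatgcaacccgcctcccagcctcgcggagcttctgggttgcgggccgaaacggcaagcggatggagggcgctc
Per3: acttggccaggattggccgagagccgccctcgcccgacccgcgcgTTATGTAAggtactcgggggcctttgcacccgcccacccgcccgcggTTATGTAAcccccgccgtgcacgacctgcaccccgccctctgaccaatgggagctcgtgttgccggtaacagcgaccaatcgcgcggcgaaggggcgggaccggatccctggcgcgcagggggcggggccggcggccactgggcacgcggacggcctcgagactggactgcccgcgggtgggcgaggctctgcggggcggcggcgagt

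Windows matched 8 of the 10 members, all but Per2 and Bhlhe40, with 13 windows in all because some genes have several start sites. The E-box, CACGTG, reads the same on both strands. It was found in 4 of the 13 windows, from 3 members: Cry1 at position -60, Per1 at -166, and Tef in both of its windows at -127 and -138. Among all 32851 RefSeq windows of this length, 7.15% held one. The D-box was searched on both strands as TTATGTAA or TTACGTAA. It was found in Per3, at -205 and -158, against 1.06% of all windows. The ROR response element, searched on both strands, was found in 1 of the 2 Arntl windows, at position 28 after the start, against 0.773% of all windows. No match overlapped another. These are matches of letters, not measured binding sites.

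The control library held 13803174 counts and the Pink1 siRNA library 14214768. Levels are in CPM, counts per 1000000 over library sizes scaled by the trimmed mean of M values (TMM), and a ratio is always Pink1 siRNA over control. QuantSeq reads the 3′ end of a transcript, so levels of different genes are compared as tags, not divided by length. The targeted gene, Pink1, had 511 control and 351 Pink1 siRNA counts, a ratio of 0.687 (95% interval for counting error 0.598 to 0.788). Adipocyte markers were present, with 12 of 13 measured and Lep at 0 counts in both libraries. Their summed level was 2782 CPM in the control and 2997 CPM in the Pink1 siRNA library. Preadipocyte and fibroblast markers summed to 24300.1 and 25159 CPM. Macrophage and endothelial markers summed to 4.14 and 2.93 CPM, with 4 of 8 at 0 in both libraries.

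All 10 clock genes were detected in both libraries, and none differed by the rule of size. That rule calls a gene when its ratio is at least 2 either way and the 95% counting interval of the ratio leaves out 1. Of the 11660 genes with at least 40 counts in both libraries together, 1.63% were called higher and 2.39% lower, against 0 of 10 clock genes in either direction. Of the 10, 5 had a ratio above 1 and 5 below, with a median log2 ratio of -0.02. The median over all measured genes was 0.00, with 51.1% of ratios above 1. In bulk cultures like these, fewer cells of a type and less RNA per cell cannot be told apart.

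The counting interval alone left out 1 for 5 clock genes: above 1 for Clock, Cry1 and Tef, and below 1 for Arntl and Per2. This is near the background, since the interval lay above 1 for 26.2% and below 1 for 24.9% of all measured genes. Counting error is thus smaller than the general spread between these 2 libraries. A second interval was therefore widened by that spread, by dividing both counts by the excess over counting error among genes of similar level (a factor of 6.10 to 14.4 for these genes). The excess was taken between the control and Pink1 siRNA libraries themselves, so it holds any effect of the siRNA as well. A widened interval that includes 1 therefore does not show that a gene was unchanged. This widened interval included 1 for all 10 clock genes, and it lay above 1 for 2.09% and below 1 for 2.01% of all measured genes. For Pink1 it ran from 0.445 to 1.05. Among the preadipocyte and fibroblast markers it lay above 1 for 3 of 7 measured, Thy1 (ratio 1.47), Col1a1 (1.15) and Dlk1 (1.12). The log2 ratios of Col1a1 (0.201) and Dlk1 (0.164) lay within the central 95% of genes of similar level (-0.319 to 0.493). That of Thy1 (0.554) lay above its own range (-0.396 to 0.467). Col1a2, named after its values were seen, went the other way, with a ratio of 0.929 (counting interval 0.922 to 0.936). Its widened interval included 1. Among the 12 measured adipocyte markers the widened interval included 1 for all. The counting intervals of Plin1 (ratio 0.607) and Slc2a4 (0.510) nevertheless lay below 1. Those of Retn (1.49), Cidec (1.25), Fabp4 (1.14), Pnpla2 (1.13) and Cfd (1.12) lay above it, and those of the other measured adipocyte markers included it. Fabp4, Pnpla2 and Cfd were named after their values were seen. The part of these markers in the ratios of the clock genes was not tested. With 1 library per group, the spread between cultures was not measured and no p-value was computed.

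**Figure D1:**
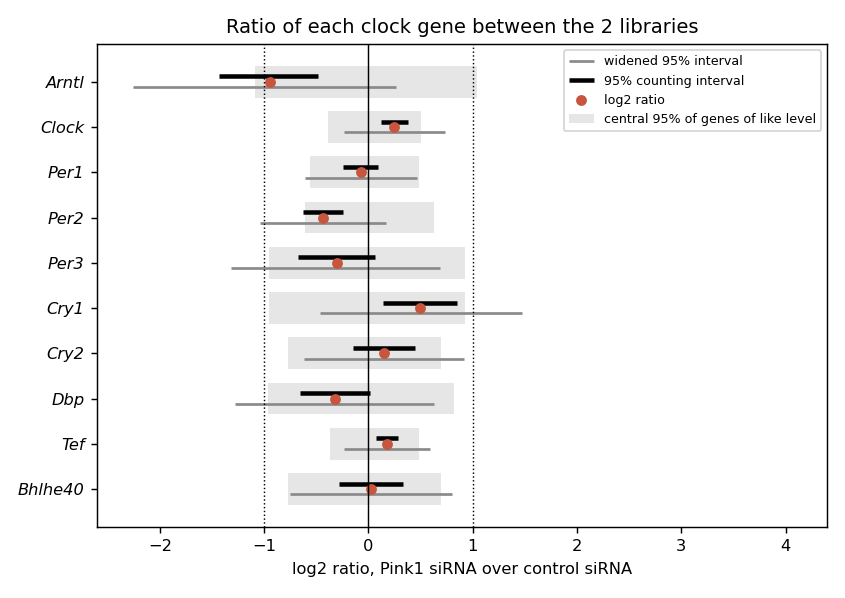
The log2 ratio of each clock gene (points, Pink1 siRNA over control siRNA), with its 95% counting interval (black), the widened interval (grey line) and the central 95% of log2 ratios among the 583 genes of similar level (shaded). Dotted lines mark a ratio of 2 either way, and all 10 points lie between them and within the shaded ranges.

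Arntl, which encodes the activator BMAL1, had the lowest ratio of the 10. The gene (chromosome 7, 113207465 to 113314126, plus strand, GENCODE M21 on GRCm38, the mm10 assembly) had 114 control counts and 59 Pink1 siRNA counts, or 8.14 and 4.21 CPM. This gives a ratio of 0.518, its counting interval being 0.371 to 0.715 and its widened interval 0.209 to 1.20. The Pink1 siRNA library was therefore the lower by more than counting error, but not beyond the spread seen among genes of this level. Among 583 genes at comparable levels, Arntl included, 21 had an equal or lower ratio. The central 95% of their log2 ratios ran from -1.09 to 1.04, against -0.94 for Arntl. Scaling by total counts without the precursor ribosomal RNA row Rn45s put its log2 ratio at -1.002, just past the rule of size. Under that scaling, 319 of the 11660 measured genes were called lower. An antisense gene overlaps Arntl by 2394 bases in the annotation and has no row in the tables.

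Clock, whose protein binds DNA as a partner of the Arntl protein, was the more abundant activator. The gene (chromosome 5, 76209868 to 76304792, minus strand) had 903 and 1071 counts, or 64.5 and 76.5 CPM. Its ratio was 1.19 (counting interval 1.08 to 1.30, widened 0.849 to 1.66). The counting intervals of Clock and Arntl thus lay on opposite sides of 1, and both widened intervals included it. Their summed level was 72.6 CPM in the control and 80.7 CPM in the Pink1 siRNA library, a log2 ratio of 0.15, and Clock made up most of that sum.

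Among the Period genes, whose proteins carry the repressor complex, all 3 ratios were below 1. Per1 (chromosome 11, 69095217 to 69109960, plus strand) had 605 and 575 counts, or 43.2 and 41.1 CPM, and a ratio of 0.9505 (counting interval 0.846 to 1.07). It responds quickly to serum, cAMP and glucocorticoids in many cells, and here the libraries were alike within counting error. Per2 (chromosome 1, 91415982 to 91459324, minus strand) had 515 and 381 counts, or 36.8 and 27.2 CPM. Its ratio of 0.740 had a counting interval of 0.646 to 0.846 and a widened interval of 0.485 to 1.12. Of 583 genes of similar level, Per2 included, 48 were as low or lower. Per2 was the lower in the Pink1 siRNA library by more than counting error only. Per3 (chromosome 4, 151003652 to 151044665, minus strand) had 142 and 115 counts, or 10.1 and 8.21 CPM, with a ratio of 0.810 (counting interval 0.628 to 1.04). Its span lies within that of Camta1 on the same strand over 41014 bases, with 117 and 88 counts for Camta1, so the counts of Per3 are uncertain.

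The cryptochromes, which bind and inhibit the activator pair, had ratios above 1. Cry1 (chromosome 10, 85131700 to 85185064, minus strand) had 116 and 163 counts, or 8.28 and 11.6 CPM. Its ratio of 1.41 was the highest of the 10, with a counting interval of 1.10 to 1.80 and a widened interval of 0.726 to 2.78. Of 583 genes of similar level, Cry1 included, 85 were as high or higher. Cry2 (chromosome 2, 92403646 to 92434043, minus strand) had 180 and 199 counts, or 12.8 and 14.2 CPM, with a ratio of 1.11 (counting interval 0.899 to 1.36). Among the 5 repressor genes, the counting interval left out 1 for Per2 and Cry1, and every widened interval included 1. Summed over its 5 genes, the repressor arm stood at 111 CPM in the control and 102 CPM in the Pink1 siRNA library, a log2 ratio of -0.12. Per1 and Per2 made up most of that sum.

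Of the output genes, Dbp and Tef encode related PAR bZIP factors that bind the same D-box. Dbp (chromosome 7, 45705088 to 45710203, plus strand), in liver among the most rhythmic transcripts known, had 171 and 137 counts, or 12.2 and 9.78 CPM. Its ratio was 0.801 (counting interval 0.635 to 1.009, widened 0.411 to 1.54). Dbp overlaps Sphk2 on the other strand by 737 bases (385 and 372 counts). The labels do not say whether strand was used, so reads of the 2 genes may be mixed. Tef (chromosome 15, 81802421 to 81826863, plus strand) was the most abundant of the 10, with 1366 and 1546 counts, or 97.52 and 110.4 CPM. Its ratio was 1.13 (counting interval 1.05 to 1.22, widened 0.851 to 1.51). Bhlhe40 (chromosome 6, 108660629 to 108666925, plus strand), which encodes the E-box-binding repressor DEC1, had 182 and 185 counts, or 12.99 and 13.2 CPM. Its ratio of 1.02 (counting interval 0.824 to 1.25) fell on the other side of 1 with total-count scaling, at a log2 ratio of -0.02, and at -0.03 without Rn45s. Together these 3 genes stood at 123 CPM in the control and 133 CPM in the Pink1 siRNA library, a log2 ratio of 0.12. Tef made up most of that sum, and the ratio of Dbp was on the other side of 1.

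**Figure D2:**
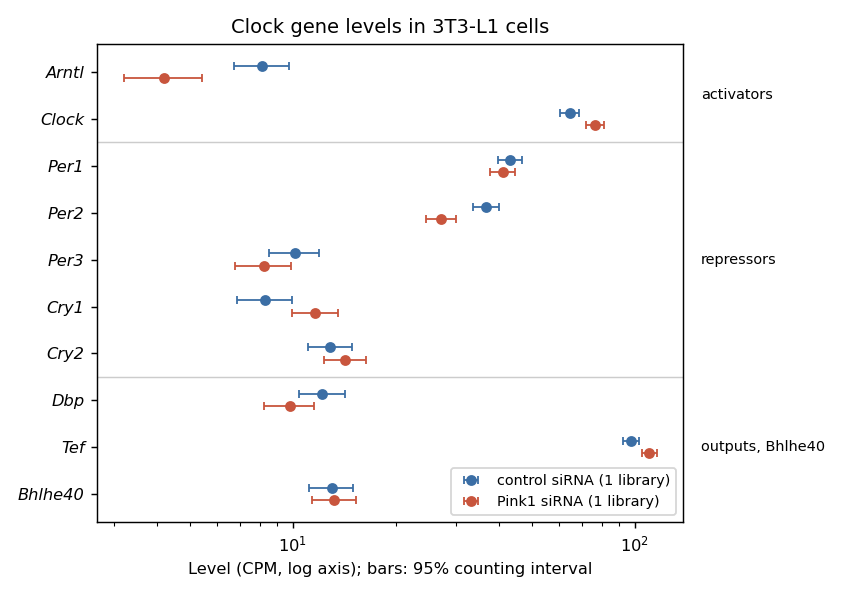
Level of each clock gene (CPM, log axis) in the control siRNA library and the Pink1 siRNA library, with the 95% counting interval of each value. Tef, Clock, Per1 and Per2 lie above the other 6 genes in both libraries, and the intervals of Arntl, Clock, Per2 and Tef do not overlap between the libraries.

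Levels spanned a wide range, and their order was alike in both libraries. In the control library it ran Tef, Clock, Per1, Per2, Bhlhe40, Cry2, Dbp, Per3, Cry1 and Arntl. In the Pink1 siRNA library it ran Tef, Clock, Per1, Per2, Cry2, Bhlhe40, Cry1, Dbp, Per3 and Arntl. The upper 4 were each apart from the next gene by more than counting error in both libraries. From Bhlhe40 downward in the control, no gene was apart from its neighbour. In the Pink1 siRNA library the same held among Cry2, Bhlhe40, Cry1, Dbp and Per3, while Per3 was 1.95 times Arntl (counting interval 1.41 to 2.72). In the control, Cry1 and Arntl were nearly equal, at 116 and 114 counts. Against all measured genes by mean level, Tef stood at percentile 84.2, Clock at 76.0, Per1 at 62.5 and Per2 at 54.6. The other 6 lay between percentile 16.2 for Arntl and 31.5 for Cry2.

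**Figure D3:**
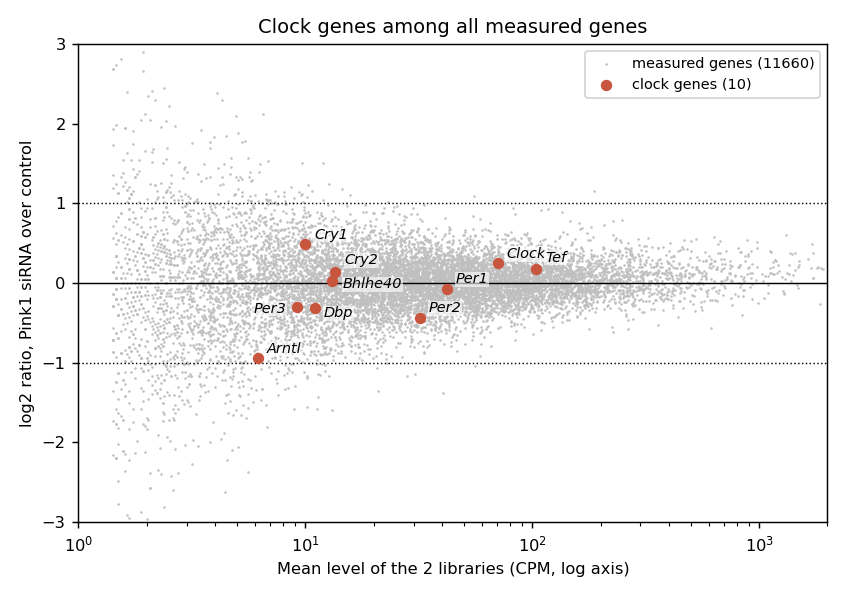
Mean level (CPM, log axis) against the log2 ratio for the 11660 measured genes (grey) and the 10 clock genes (named points). The clock genes lie within the cloud at their levels, with Arntl nearest to the dotted line at a ratio of 2, and 38 genes fall outside the axes.

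The count of one gene over another within a library does not depend on how libraries are scaled. Such ratios were compared for all 45 pairs of the 10 genes, which share genes and so are not independent of each other. The change between libraries had a counting interval that left out 1 for 25 of the 45 pairs, among them all 9 with Arntl. The share among pairs of all genes was not computed. The widened interval of the change included 1 for all 45 pairs. Cry1 over Arntl differed most, as follows from their being the highest and lowest of the 10 ratios, from 1.02 in the control to 2.76 in the Pink1 siRNA library, a 2.72-fold difference (counting interval 1.80 to 4.11, widened 0.997 to 7.40). Clock over Arntl went from 7.92 to 18.2, a 2.29-fold difference (counting interval 1.64 to 3.23, widened 0.978 to 5.37). Between the 2 activators, then, Clock tags outnumbered Arntl tags in both libraries, and the increase in the Pink1 siRNA library exceeded counting error only.

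Arntl was also set against Dbp and Per2, whose rhythms run opposite to its own in most tissues. Here the ratios of Arntl (0.518), Dbp (0.801) and Per2 (0.740) were all below 1, and the counting interval of Dbp included 1. The pair ratios below thus fell because that of Arntl was the lowest, not because the genes differed in direction. Arntl over Dbp was 0.667 in the control and 0.431 in the Pink1 siRNA library, a change to 0.646 of the control value (counting interval 0.430 to 0.967, widened 0.238 to 1.75). Arntl over Per2 was 0.221 and 0.155, a change to 0.700 (counting interval 0.488 to 0.995, widened 0.289 to 1.69). The Per1 over Per2 ratio went from 1.17 to 1.51, a 1.28-fold difference (counting interval 1.07 to 1.54, widened 0.753 to 2.19). Cry1 over Per2 had the largest change among pairs without Arntl, from 0.225 to 0.428 (1.90-fold, counting interval 1.43 to 2.52, widened 0.910 to 3.97). Dbp over Tef was 0.125 and 0.0886, a change to 0.708 of the control value (counting interval 0.555 to 0.902, widened 0.362 to 1.38). Each library is a single time of harvest, so the phase of a rhythm was not measured.

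**Figure D4:**
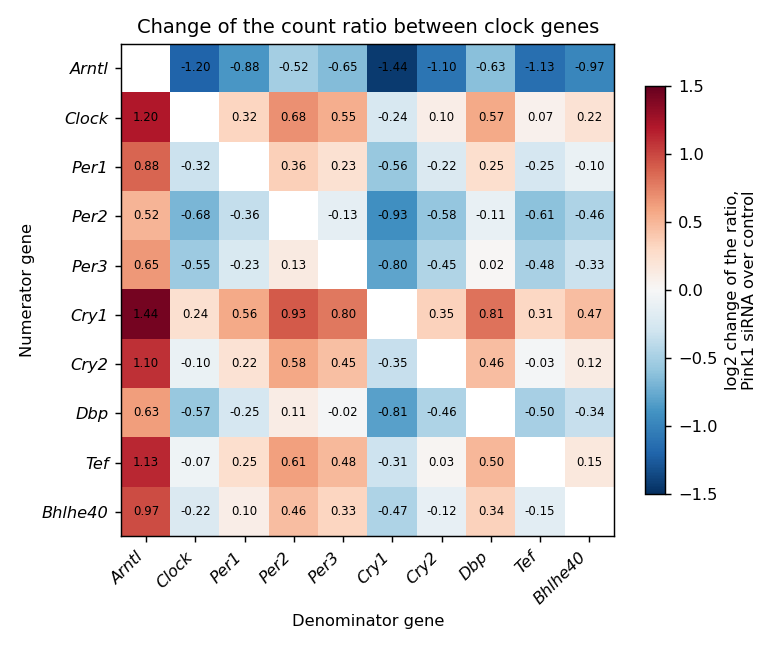
Change between libraries in the count ratio of each pair of clock genes, as a log2 value (row gene over column gene, Pink1 siRNA over control). The Arntl row is below 0 throughout and the Cry1 row above 0 throughout, as follows from their having the lowest and the highest ratio of the clock genes.

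Other transcription factors of the clock gave no call either. Of 12 listed, 9 were measured, 6 with a ratio above 1 and 3 below, a median log2 ratio of 0.12, and widened intervals that all included 1. Nr1d1, the heme-binding repressor of Arntl, had 167 and 240 counts, or 11.9 and 17.1 CPM, a ratio of 1.44 (counting interval 1.17 to 1.76, widened 0.860 to 2.43). Reads of Thra, which overlaps it by 1075 bases (993 and 1137 counts), may be among them. Its paralog Nr1d2 had 211 and 178 counts, a log2 ratio of -0.24, on the other side of 1. Rora, the opposing activator of Arntl, had 632 and 660 counts, and Nfil3, a repressor at D-boxes, had 243 and 278, both chosen after their values were seen. Ciart, a repressor of the activator pair, had 17 and 30 counts and overlaps C920021L13Rik (100 and 46 counts). Tipin, a replication fork protein and partner of Timeless, had a log2 ratio of -0.22.

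The 3 factors of this list below the minimum of 40 counts had fewer counts in the Pink1 siRNA library, and are named after their values were seen. Hlf, the other PAR bZIP factor beside Dbp and Tef, had 31 control counts and 1 Pink1 siRNA count, a ratio of 0.0323 (counting interval 0.000792 to 0.194). Rorb had 22 and 1 counts, a ratio of 0.0455 (counting interval 0.00110 to 0.281). Npas2, which can stand in for Clock, had 12 and 0 counts, with a counting interval of the ratio of 0 to 0.360. With the 0 set at the 3 counts it allows, it was 4.0-fold lower, a value that leaves out the counting error of the 12. Among the 752 genes with 20 to 39 counts in both libraries together, 21.4% were past the same size and interval as lower and 15.7% as higher. Of these 752, 21 had at most 1 count in the Pink1 siRNA library and 14 at most 1 in the control. Hlf and Rorb belong to this class of counts, and Npas2, with 12 counts in all, lies below it.

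The median of genes that modify clock proteins stood close to that of all genes. Of 27 listed kinases, ubiquitin ligases and cofactors, 25 were measured, 10 with a ratio above 1 and 15 below, and the median log2 ratio was -0.07. None was called, and every widened interval included 1. Gsk3b, a kinase that phosphorylates several clock proteins, had 4497 and 3296 counts, a log2 ratio of -0.45. Hdac3, the deacetylase recruited by Nr1d1, had 0.47, the casein kinase 2 subunit Csnk2b 0.43 and the histone demethylase Kdm5a 0.30. Csnk1d, the kinase that sets the pace of PER turnover, had 1841 and 1848 counts (131 and 132 CPM), chosen after its values were seen.

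Transcripts that follow the clock in many tissues did not share a direction. Of 15 listed, 14 were measured, 6 with a ratio above 1 and 8 below, with a median log2 ratio of -0.02 and a mean of 0.02. Nampt, the rate-limiting enzyme of NAD salvage, had 1442 and 2076 counts, a ratio of 1.44 with a widened interval of 1.05 to 1.98. It was the 1 gene of the 14 whose widened interval lay above 1, against 2.09% of all measured genes, and it overlaps Gdap10 (240 and 238 counts). Tsc22d3, the glucocorticoid-induced leucine zipper gene, had 0.46 on the log2 scale, the cell cycle inhibitor Cdkn1a -0.36 and the Kruppel-like factor Klf13 -0.43. Usp2, a deubiquitinase driven by the clock, had 325 and 296 counts, chosen after its values were seen.

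Glucocorticoid and cAMP signals both reset clocks in culture, and Per1 belongs to both lists. Of 14 glucocorticoid receptor targets, all measured, 11 had a ratio above 1, with a median log2 ratio of 0.20 and no call. Tsc22d3 had 5389 and 7387 counts, the mTOR inhibitor Ddit4 had a log2 ratio of 0.43, Cebpd 0.39 and the co-chaperone Fkbp5 0.35, and all 4 widened intervals included 1. Cebpd overlaps Spidr (383 and 545 counts). Of these 14 genes, 7 were in the most abundant twentieth of all genes, where 64.3% of ratios were above 1 and the median was 0.09. The part of level in this median was not tested.

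Of 13 cAMP and CREB early response genes, 11 were measured, 4 with a ratio above 1 and 7 below, a median log2 ratio of -0.29. This list gave 2 calls among the 11, both lower in the Pink1 siRNA library, against 2.39% of all measured genes called lower and 1.63% higher. The widened interval lay below 1 for 3 of the 11 (Fos, Nr4a2 and Egr1), against 2.01% of all measured genes. The list was chosen with earlier results of these data known, so these shares are a description only. The immediate early gene Fos had 148 and 42 counts, a ratio of 0.284 (counting interval 0.196 to 0.402, widened 0.101 to 0.690). The orphan receptor gene Nr4a2 had 195 and 97 counts, a ratio of 0.497 (widened 0.236 to 0.999), and with 5 added before the log its log2 ratio was -0.97, short of the rule. Egr1 had 3755 and 2561 counts, a log2 ratio of -0.55, with a widened interval of the ratio of 0.506 to 0.916. The coactivator Ppargc1a had -0.53, with a widened interval that included 1. Per1, of the same list, had a ratio of 0.9505 and gave no call.

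**Figure D5:**
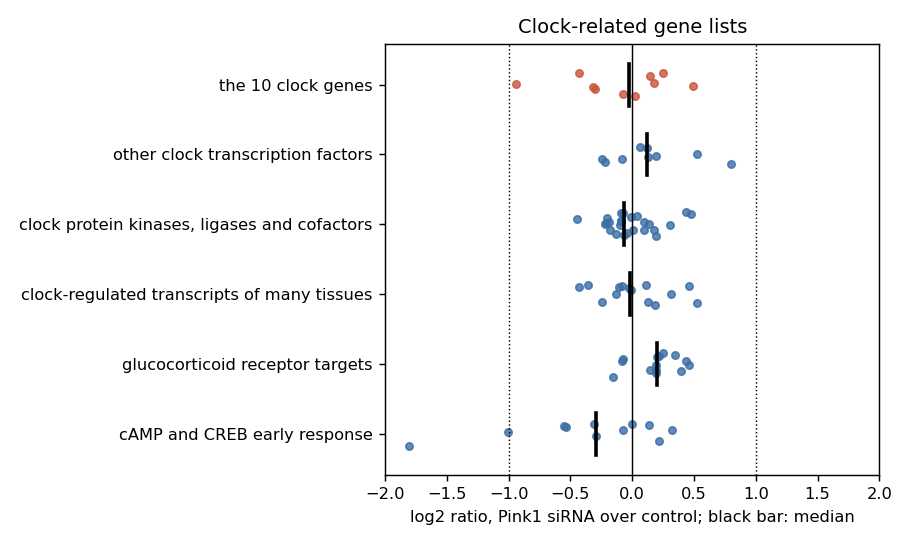
Log2 ratios (Pink1 siRNA over control) of the 10 clock genes and of the measured genes in 5 related lists, with the median of each as a black bar and dotted lines at a ratio of 2 either way. Fos and Nr4a2, at the left of the cAMP and CREB list, lie beyond the line.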

How the data were processed

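3′ end libraries (QuantSeq kit, 500 ng of total RNA, per the labels) were made from 2 cultures, 1 per group. The deposited values are raw read counts per gene symbol. The submitters' processing notes name bcl2fastq 2.20.0.422, Bowtie2, bedtools and the mm10 build. For the gene annotation, multiply mapped reads and strand, the setting is not given in the sources used here.

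Counts were scaled to TMM effective library sizes (edgeR 4.0.16, R 4.3.3). The log2 ratio was taken after adding 0.5 to scaled counts. Ratio intervals were exact conditional binomial (Clopper-Pearson, 95%) and level intervals exact Poisson (SciPy 1.17.1), and a count of 0 allows 3 counts (0.214 CPM). They cover counting error only. Pair ratios had exact conditional odds ratio intervals, and their widened intervals used a normal approximation. Genes needed 40 summed counts, which all 10 members passed. Widening factors were mean squared deviations over binomial variance in 20 bins of mean level. The calling code was tested on simulated data with counting error only, and with changes set only in genes of at least 200 summed counts. That test therefore does not cover the wider spread between these libraries or weakly counted genes. Overlaps came from GENCODE M21.

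Named genes are all members, and from each other list the called genes and up to 4 with the largest log2 ratio in size; marker lists are given as sums with such genes. One listed gene is not reported here. Members, lists and rules were chosen with earlier results of these data known. Alternatives were 4 other scalings, including DESeq2 1.42.0 size factors, 5 added before the log, other filters and ratios, no counting interval, and the widened interval. Scaling alternatives for counts of intervals and those of Fos and Nr4a2 were chosen after seeing the data.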

Additional observations from a re-analysis of the deposited data

How the results depend on the processing

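Of 60 alternative values of the 10 members' log2 ratios, 58 kept the sign, the exceptions being Bhlhe40 under total-count scaling and without Rn45s, and the largest move was 0.06. The 60 include the widened interval, which leaves the log2 ratio as it is and so could not change a sign. Each other scaling moved all members by nearly the same small amount, so only a ratio close to 1 could change side. The count of members called lower was 0 in the main analysis and 1 (Arntl) both with total counts without Rn45s and with a ratio of 1.5. Those settings called 319 and 774 of the 11660 measured genes lower, against 279 in the main analysis. No alternative called a member higher. The 3 members with a counting interval above 1 and the 2 below became 0 and 0 with the widened interval, and 3 lay below, Dbp added, with total-count scaling or without Rn45s. The share of all genes with such an interval was not computed under those scalings. Summed levels of the 3 arms kept their sign and stayed within their counting intervals. Over all genes, 190 higher and 279 lower calls became 597 and 853 with no low-count filter, 26 and 40 at a summed count of at least 200, 633 and 774 at a ratio of 1.5, 23 and 44 at a ratio of 4, and 48 and 81 with the widened interval. The median of the other clock transcription factors went from 0.12 to -0.01 with no filter, which lets in Hlf, Rorb and Npas2. No paired analysis was possible because each group has 1 library. Leaving out a replicate was not possible for the same reason. Depth limits Arntl, Cry1 and Per3 most among the members, each at 163 counts or fewer in both libraries.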
